A study of Mus musculus with 8 samples.

Results

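Macrophages of the heart come from a resident population that is maintained locally and from monocytes that are recruited from blood after injury. The genes described here mark those populations: Timd4, Lyve1, Folr2, Cbr2, Mrc1, Cd163 and F13a1 are used as markers of resident-type macrophages, Csf1r marks the macrophage lineage as a whole, and Trem2 and Gpnmb mark the lipid-laden and scar-associated state. They were chosen by name, as the 10 listed symbols in a table of 33249 genes. All 10 were present, and all 10 passed the filter on low values that left 14028 genes for testing.

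Resident macrophages depend on signalling through the CSF1 receptor, a tyrosine kinase bound by the growth factors CSF1 and IL-34. They clear dying cells and debris with receptors such as TIM-4, the mannose receptor and CD163. TREM2 is a lipid receptor that signals through the adaptor DAP12, and its activity accompanies the uptake of cell debris in injured tissue.

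The libraries were poly(A) RNA-seq of mouse myocardium in 4 groups of 2. All mice carried Piezo1 alleles flanked by loxP sites (fl/fl), and Piezo1 is a mechanically gated cation channel. CKO mice also carried a tamoxifen-inducible Cre fused to part of the oestrogen receptor under the cardiomyocyte promoter of Myh6, and fl/fl mice were littermates without it. Cre in this line is driven in cardiomyocytes and not in macrophages. Tamoxifen for deletion was given at 4 weeks of age, and at 8 weeks mice had an infarction, made by tying off the left anterior descending artery for good (MI), or a sham operation. The MI groups were fl/fl-MI and CKO-MI, sampled on day 42, and the sham groups were fl/fl-Sham and CKO-Sham, for which the labels give no day. The labels do not say whether a library was 1 heart or a pool, so the p-values below measure the spread between 2 libraries a group.

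Total counts were 73821747 to 88117573 per library, and 43.1% to 46.4% of them (sham) or 19.9% to 24.2% (MI) were mitochondrial. Levels are CPM, counts set against library sizes that were scaled by the trimmed mean of M-values (TMM), unless FPKM, a level per length, is named. Piezo1 was not lower in the libraries labelled CKO: it was 76.7 and 88.3 CPM in CKO-Sham against 72.2 and 82.0 in fl/fl-Sham, and 56.3 and 64.6 in CKO-MI against 53.5 and 64.8 in fl/fl-MI. Piezo1 is also made by cells in which this Cre is not active. Esr1, the gene of the oestrogen receptor part of the transgene, had 707 and 402 CPM in CKO-MI but also 331 CPM in fl/fl-MI 2, and it had 5.52 to 8.36 CPM in the other 5 libraries, both CKO-Sham libraries included. Esr1 thus goes against the label of fl/fl-MI 2 and of the CKO-Sham libraries, and every direction between genotypes below is between libraries as labelled. The same holds for each change with MI within fl/fl or within CKO, and for each interaction. That fl/fl-MI 2 library also held 3834 CPM of the atrial gene Bmp10, against at most 18.8 CPM in any other library. Cardiomyocyte markers summed to 26476 to 30233 CPM in sham and 13186 to 29731 CPM in MI, where fl/fl-MI 2 was highest. Results that rest on fl/fl-MI 2 are given with and without it.

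In bulk tissue, fewer cells of a type and less RNA per cell cannot be told apart. Per length, the resident-type genes Cbr2 and Lyve1 had the highest medians over the 8 libraries, 11.1 and 10.3 FPKM, and their ranges of 4.47 to 14.1 FPKM and 5.71 to 38.9 FPKM overlapped. Csf1r (median 7.63 FPKM), F13a1 (7.62 FPKM) and Mrc1 (6.18 FPKM) followed. Gpnmb (5.28 FPKM), Cd163 (4.91 FPKM) and Folr2 (4.70 FPKM) came next, and the ranges of all neighbours in this order overlapped. Trem2 and Timd4 came last, with medians of 0.851 and 0.551 FPKM and highest values of 2.18 and 2.50 FPKM. Timd4 therefore rests on few molecules. Deposited counts pile up at multiples of 4, read here as about 4 count units for a read pair, so its 22 counts in CKO-MI 1 stand for about 6 pairs. Their exact 95% Poisson interval, which covers counting error only, is 0.104 to 0.617 CPM. The interval for CKO-MI 2 is 0.377 to 1.07 CPM, and that for fl/fl-MI 1, the lower of the fl/fl-MI libraries, is 2.33 to 3.68 CPM.

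**Figure D1:**
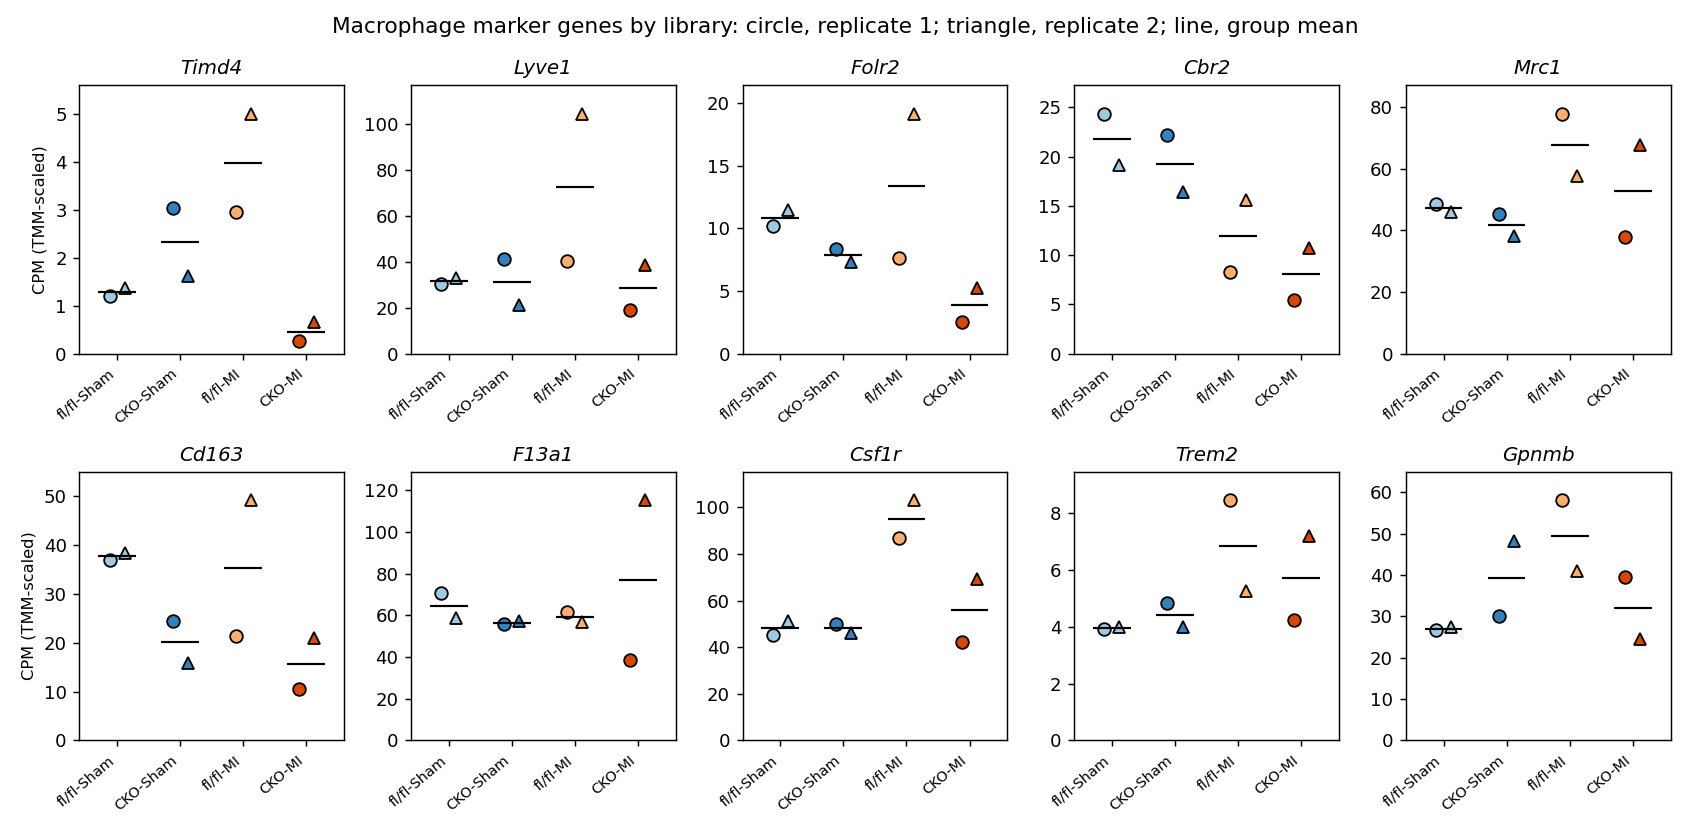
TMM-scaled CPM (linear axis from 0, 1 panel for each gene) of the 10 marker genes in each of the 8 libraries, grouped by labelled genotype and operation, with replicate 1 as a circle, replicate 2 as a triangle and the group mean as a line. Timd4 and Folr2 are lowest in the 2 CKO-MI libraries, Csf1r is highest in the 2 fl/fl-MI libraries, and F13a1 is highest in CKO-MI 2 at 115 CPM.

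RefSeq promoter sequence on GRCm38.p6 was available for 8 of the members, in 10 windows that end at an annotated start. The 250 bases before the start are shown for Timd4 and Folr2, which had the largest differences between the MI groups, for Mrc1 and Trem2, which varied alike across the libraries, and for the 2 starts of F13a1, whose use differed between libraries. Capitals mark 3 motifs looked for on both strands: GAGGAA, the purine box bound by PU.1, TGCTGA, a half-site of some basic leucine zipper factors, and TGAGTCA, the AP-1 site. Copies on the opposite strand read as their reverse complement. The E-box CACGTG, bound by MITF and TFE factors, was searched as well.
Timd4, chr11:46810549-46810798, plus strand: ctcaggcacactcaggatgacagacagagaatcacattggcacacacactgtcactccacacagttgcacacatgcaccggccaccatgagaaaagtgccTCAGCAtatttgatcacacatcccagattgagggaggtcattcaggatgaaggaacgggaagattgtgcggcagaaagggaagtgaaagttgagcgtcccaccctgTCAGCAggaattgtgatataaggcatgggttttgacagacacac
Folr2, chr7:101845332-101845581, minus strand: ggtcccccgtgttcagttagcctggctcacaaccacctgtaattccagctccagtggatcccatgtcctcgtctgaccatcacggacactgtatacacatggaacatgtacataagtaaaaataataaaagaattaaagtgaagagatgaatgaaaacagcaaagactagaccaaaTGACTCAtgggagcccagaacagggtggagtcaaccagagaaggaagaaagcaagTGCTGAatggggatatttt
Mrc1, chr2:14229164-14229413, plus strand: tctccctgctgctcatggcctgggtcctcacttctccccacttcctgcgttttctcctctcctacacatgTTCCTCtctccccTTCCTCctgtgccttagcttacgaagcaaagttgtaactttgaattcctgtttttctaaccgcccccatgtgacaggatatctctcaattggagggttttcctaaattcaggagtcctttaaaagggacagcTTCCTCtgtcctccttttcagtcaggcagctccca
Trem2, chr17:48346151-48346400, plus strand: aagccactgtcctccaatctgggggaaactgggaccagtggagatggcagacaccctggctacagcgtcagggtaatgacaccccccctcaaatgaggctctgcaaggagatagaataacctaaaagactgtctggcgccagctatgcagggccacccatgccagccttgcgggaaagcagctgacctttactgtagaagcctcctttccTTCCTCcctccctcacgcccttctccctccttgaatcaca
F13a1, chr13:37049214-37049463, minus strand: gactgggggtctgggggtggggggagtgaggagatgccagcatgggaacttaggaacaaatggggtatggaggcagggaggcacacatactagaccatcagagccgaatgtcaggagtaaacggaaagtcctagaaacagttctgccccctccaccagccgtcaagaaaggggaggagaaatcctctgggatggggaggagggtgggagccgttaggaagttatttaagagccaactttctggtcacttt
F13a1, chr13:37050245-37050494, minus strand: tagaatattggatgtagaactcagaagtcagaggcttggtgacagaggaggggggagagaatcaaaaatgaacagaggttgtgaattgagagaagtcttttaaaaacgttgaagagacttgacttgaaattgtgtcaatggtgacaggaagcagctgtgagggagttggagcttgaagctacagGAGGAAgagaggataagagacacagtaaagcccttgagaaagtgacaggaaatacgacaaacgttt

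Timd4 held 2 copies of TGCTGA, 144 and 38 bases before its start, and Folr2 held 1 copy 13 bases before its start with a TGAGTCA 67 bases before it. TGCTGA lay in the 250 bases of 16.1% of all 32851 promoters, and TGAGTCA in 4.46%. Mrc1 held GAGGAA 3 times, 174, 161 and 29 bases before its start, and Trem2 once, 34 bases before it. The upstream start of F13a1 had 1 GAGGAA and the downstream start had none of the motifs. GAGGAA lay in 23.3% of all promoters. Among the windows not shown, the other start of Folr2 held 1 TGCTGA 214 bases before it, and Gpnmb and Cd163 held none of the motifs. Cbr2 held 1 GAGGAA 73 bases before its RefSeq start, and this site lies inside the span given for the gene below. Of the 10 windows, 4 thus held GAGGAA, 3 TGCTGA and 1 TGAGTCA. No window of a member held CACGTG, which 6.02% of all promoters held. The motifs do not overlap one another here, and a match describes the letters only.

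Timd4 encodes TIM-4, the phosphatidylserine receptor with which resident macrophages bind apoptotic cells (ENSMUSG00000055546, chr11:46810800-46844332). It had 1.19 and 1.38 CPM in fl/fl-Sham, 3.02 and 1.63 in CKO-Sham, 2.96 and 5.00 in fl/fl-MI, and 0.260 and 0.660 in CKO-MI. Both CKO-MI libraries were thus below all 6 others, and both fl/fl-MI libraries were above both fl/fl-Sham libraries.

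In CKO-MI against CKO-Sham Timd4 fell by 2.33 on the log2 scale (SE 0.57, 5.03-fold; edgeR quasi-likelihood test, adjusted p = 0.0269), the only member that passed the test lower there. In the background, 11.9% of all genes tested were called lower in that comparison. Across the alternatives its adjusted p ran from 0.000455 with DESeq2 to 0.157 without CKO-Sham 1. The call ended without CKO-MI 1 (log2 difference -1.84, adjusted p = 0.106), CKO-Sham 1 (-1.82, adjusted p = 0.157) or CKO-Sham 2 (-2.71, adjusted p = 0.0634). It also ended without fl/fl-Sham 1 or 2, where the difference of -2.33 did not move and the adjusted p was 0.0578 and 0.0582. It ended as well in limma on log2(FPKM + 1), at -0.55 (adjusted p = 0.0743), and on log2(TPM + 1), at -0.51 (adjusted p = 0.149).

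In fl/fl-MI against fl/fl-Sham the Timd4 difference was 1.63 (SE 0.54, unadjusted p = 0.0201, adjusted p = 0.0778), and did not pass the test. It passed in DESeq2 (1.61, adjusted p = 0.0208) and without fl/fl-MI 1 (1.93, adjusted p = 0.0397), and was 1.2005 without fl/fl-MI 2 (adjusted p = 0.161). In limma it passed at 1.07 on log2(FPKM + 1) (adjusted p = 0.00879) and at 1.68 on TPM (adjusted p = 0.00197), where 34.2% and 65.7% of all genes were called higher. The test of the difference between these responses, the interaction of genotype and MI, gave -3.96 (SE 0.78, unadjusted p = 0.00145) and an adjusted p of 0.560 in edgeR. DESeq2 gave -3.96 with an adjusted p of 0.00115, and edgeR without fl/fl-MI 1 gave -4.27 (adjusted p = 0.0262) and without fl/fl-MI 2 gave -3.53 (adjusted p = 0.125).

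Folr2 encodes folate receptor beta (ENSMUSG00000032725, chr7:101839988-101857194). It had 10.2 and 11.4 CPM in fl/fl-Sham, 8.39 and 7.30 in CKO-Sham, 7.62 and 19.2 in fl/fl-MI, and 2.53 and 5.27 in CKO-MI. As for Timd4, both CKO-MI libraries were below the other 6, and the fl/fl-MI libraries were far apart. The log2 difference was -1.01 (SE 0.49, adjusted p = 0.168) in CKO-MI against CKO-Sham and 0.31 (SE 0.48, adjusted p = 0.679) in fl/fl-MI against fl/fl-Sham, where it was 0.80 without fl/fl-MI 1 and -0.51 without fl/fl-MI 2. Over both genotypes it was -0.35 (SE 0.34, adjusted p = 0.440), and without fl/fl-MI 2 Folr2 passed the test at -0.76 (adjusted p = 0.0459), but without fl/fl-MI 1 it was -0.11 (adjusted p = 0.734). In CKO it passed at -1.02 without fl/fl-MI 1 (adjusted p = 0.0381) and at -1.01 without fl/fl-MI 2 (adjusted p = 0.0442).

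Lyve1, a hyaluronan receptor shared by resident macrophages and lymphatic vessels (ENSMUSG00000030787, chr7:110850607-110863239), had 30.2 and 33.0 CPM in fl/fl-Sham, 41.1 and 21.3 in CKO-Sham, 40.3 and 105 in fl/fl-MI, and 19.0 and 38.6 in CKO-MI. The fl/fl-MI 2 value stood apart from the other 7, which lay between 19.0 and 41.1 CPM. Its pooled MI against sham difference was 0.54 (SE 0.37, adjusted p = 0.283), and it was 0.12 without fl/fl-MI 2 and 0.78 without fl/fl-MI 1. Within fl/fl the difference was 1.19 (SE 0.53, adjusted p = 0.155), and it passed the test at 1.70 without fl/fl-MI 1 (adjusted p = 0.0266) but was 0.35 without fl/fl-MI 2 (adjusted p = 0.593). Among 5 markers of lymphatic endothelium tested, Prox1 and Pdpn rose with MI, and Ccl21a, a chemokine of lymphatic vessels, had 5.20 CPM in fl/fl-MI 2, its lowest value (Ccl21a was chosen after its values were seen). The lymphatic markers summed to 77.9 CPM in fl/fl-MI 2 and to 93.2 CPM or more elsewhere. The part of lymphatic vessels in the Lyve1 values was not tested.

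Cd163, the haemoglobin scavenger receptor (ENSMUSG00000008845, chr6:124304656-124330527), had 36.9 and 38.3 CPM in fl/fl-Sham, 24.5 and 15.8 in CKO-Sham, 21.3 and 49.0 in fl/fl-MI, and 10.4 and 20.9 in CKO-MI. Its MI against sham difference was -0.23 (SE 0.32, adjusted p = 0.602), or -0.59 without fl/fl-MI 2 (adjusted p = 0.0966) and -0.011 without fl/fl-MI 1 (adjusted p = 0.976). The groups overlapped between MI and sham, and fl/fl-MI 2 was the highest library.

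The deposited transcript values showed what that gene total was made of. The transcript ENSMUST00000203210, annotated as a retained intron, of 6 exons and 2779 bases, starts 15831 bases inside the gene in GENCODE M21, and the 17-exon transcripts ENSMUST00000032234 and ENSMUST00000112541 cover the whole gene. The short transcript held 54.0% to 62.3% of the gene's summed FPKM in sham and 25.95% to 44.8% in MI. In FPKM it was 1.88 to 5.22 in sham and 1.38 to 3.46 in MI. ENSMUST00000112541 was 0.159 to 0.636 FPKM in sham and 0.165 to 3.79 FPKM in MI, where CKO-MI 1 was within the sham range. These are assignments of shared exons by the authors' software and were not tested.

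Cbr2, a carbonyl reductase (ENSMUSG00000025150, chr11:120729489-120732114), was the member that fell with MI. It had 24.4 and 19.2 CPM in fl/fl-Sham, 22.2 and 16.4 in CKO-Sham, 8.27 and 15.6 in fl/fl-MI, and 5.47 and 10.8 in CKO-MI. Every MI library was below every sham library. The mean log2 change over both genotypes was -1.06 (SE 0.29, 2.08-fold lower; edgeR adjusted p = 0.0255), and the changes within the genotypes were -0.87 (SE 0.41) in fl/fl and -1.25 (SE 0.41) in CKO, with an interaction of -0.38 (SE 0.57, adjusted p = 0.888). Neither genotype passed the test alone, with adjusted p of 0.172 and 0.0654. In CKO it passed with DESeq2, with only the 4 CKO libraries fitted, and without fl/fl-MI 1 or 2, and in fl/fl without fl/fl-MI 2 (-1.40, adjusted p = 0.0413) but not without fl/fl-MI 1 (-0.51, adjusted p = 0.363). Over both genotypes Cbr2 held without fl/fl-MI 2 (-1.32, adjusted p = 0.00517).

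Cbr2 was the 1 member of 10 called lower in MI, against 18.3% of all genes tested. It was also the 1 member whose MI libraries were below its sham libraries without overlap, as 19.5% of all genes were. Its call ended without fl/fl-Sham 1 (log2 change -0.97, adjusted p = 0.0848), fl/fl-Sham 2 (-1.14, adjusted p = 0.0599), CKO-Sham 1 (-0.94, adjusted p = 0.0901) or CKO-MI 1 (-0.88, adjusted p = 0.0601). It also ended on the deposited FPKM, where the median of all genes moved by 0.41 and Cbr2 by -0.50 (limma on log2(FPKM + 1), adjusted p = 0.140; on log2(FPKM + 0.1), adjusted p = 0.138), and on TPM made from them its direction turned to 0.02 beside a median of 0.92.

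Mrc1, the mannose receptor CD206 (ENSMUSG00000026712, chr2:14229392-14332057), had 48.7 and 45.8 CPM in fl/fl-Sham, 45.4 and 38.1 in CKO-Sham, 77.8 and 57.5 in fl/fl-MI, and 37.8 and 67.8 in CKO-MI. Of the 4 MI libraries 3 were above every sham library and CKO-MI 1 was below them. The pooled difference was 0.43 (SE 0.20, adjusted p = 0.131). Without CKO-MI 1, Mrc1 passed the test at 0.58 (adjusted p = 0.0337). It was 0.17 with CKO-MI 2 left out instead (adjusted p = 0.415).

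F13a1 encodes the A subunit of coagulation factor XIII, which is made by macrophages and platelets (ENSMUSG00000039109, chr13:36867178-37050244). It had 70.8 and 58.6 CPM in fl/fl-Sham, 55.6 and 57.3 in CKO-Sham, 61.8 and 56.6 in fl/fl-MI, and 38.4 and 115 in CKO-MI. The 2 CKO-MI libraries were thus the lowest and the highest of all, around a pooled difference of 0.16 (SE 0.31, adjusted p = 0.710). The pooled difference was 0.42 and passed the test without CKO-MI 1 (adjusted p = 0.0420), and it was -0.36 without CKO-MI 2. Within CKO, F13a1 passed the test at 1.004 without CKO-MI 1 (adjusted p = 0.0342). The platelet markers summed to 21.7 CPM in CKO-MI 1 and 13.7 CPM in CKO-MI 2. Among them Pf4, which is also on the list of resident-type genes, went the other way, at 7.25 CPM in CKO-MI 1 and 9.79 CPM in CKO-MI 2. The part of platelets in the F13a1 values was not tested.

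The high F13a1 value of CKO-MI 2 came with a second start. The transcript ENSMUST00000164727 begins 956 bases upstream of ENSMUST00000037491, and the upstream window shown above ends at its start. The other window ends at a RefSeq start near that of ENSMUST00000037491 and not at it. The upstream transcript ENSMUST00000164727 had 19.7 FPKM in CKO-MI 2, 52.2% of the gene's summed FPKM, and 3.17 FPKM (15.7%) in fl/fl-MI 1. CKO-Sham 2 had 0.541 FPKM, and the other 5 libraries were listed at 0. The downstream transcript stayed between 10.4 and 16.6 FPKM in all 8 libraries. A single library carries most of this signal, so no comparison between groups follows from it.

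Csf1r, the receptor for CSF1 and IL-34 (ENSMUSG00000024621, chr18:61100598-61131134), was the member that rose with MI. It had 45.2 and 51.1 CPM in fl/fl-Sham, 49.9 and 46.3 in CKO-Sham, 86.8 and 103 in fl/fl-MI, and 42.4 and 69.2 in CKO-MI. The 4 sham libraries were nearly level, both fl/fl-MI libraries were above all others, and CKO-MI 1 was the lowest library of the 8.

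Over both genotypes Csf1r rose by 0.60 (SE 0.17, 1.51-fold; edgeR adjusted p = 0.0277), and it was the 1 member called higher, against 22.0% of all genes. No member had every MI library above every sham library, as 20.9% of all genes did. In fl/fl-MI against fl/fl-Sham the change was 0.98 (SE 0.24, 1.97-fold, adjusted p = 0.0335), again the 1 member called higher, against 10.1% of all genes. In CKO-MI against CKO-Sham the difference was 0.21 (SE 0.24, adjusted p = 0.536). The interaction was -0.77 (SE 0.33, unadjusted p = 0.0557, adjusted p = 0.600), so the responses were not shown to differ.

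The pooled call of Csf1r ended without fl/fl-Sham 1 (log2 change 0.55, adjusted p = 0.0992), fl/fl-Sham 2 (0.64, adjusted p = 0.0732), CKO-Sham 1 (0.62, adjusted p = 0.0802), CKO-Sham 2 (0.57, adjusted p = 0.0919) or CKO-MI 2 (0.38, adjusted p = 0.0619). With no genotype term, an alternative added after seeing the data, it ended at 0.65 (adjusted p = 0.0504). Without fl/fl-MI 2 it held at 0.53 (adjusted p = 0.0337). The call within fl/fl also held without fl/fl-MI 2 (0.85, adjusted p = 0.0448). It ended without fl/fl-Sham 1 (adjusted p = 0.184), fl/fl-Sham 2 (0.155), CKO-Sham 1 (0.0706) or CKO-Sham 2 (0.0704), and when only the 4 fl/fl libraries were fitted (0.0712). On the deposited FPKM the pooled change of Csf1r was 1.04 beside the median of 0.41, and the adjusted p was 0.00335 in limma, where 4 of the 10 members and 50.1% of all genes were called higher. With a pseudocount of 0.1 the members called higher were again 4, beside 50.8% of all genes, and on TPM 7, beside 76.7%. Within fl/fl 4 members were called higher on both FPKM scales, beside 34.2% and 35.5% of all genes, and 7 on TPM, beside 65.7%. Within CKO 3 were on TPM, beside 61.7%.

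Trem2 (ENSMUSG00000023992, chr17:48346401-48354147) had 3.91 and 3.97 CPM in fl/fl-Sham, 4.84 and 3.997 in CKO-Sham, 8.44 and 5.26 in fl/fl-MI, and 4.22 and 7.18 in CKO-MI. Of the 4 MI libraries 3 were above every sham library, and CKO-MI 1 was within the sham range. The pooled difference was 0.58 (SE 0.24, adjusted p = 0.0971), and it passed the test at 0.73 without fl/fl-MI 2 (adjusted p = 0.0295), but was 0.37 without fl/fl-MI 1 (adjusted p = 0.211). Leaving out CKO-MI 2 gave 0.35 (adjusted p = 0.302). Within fl/fl the Trem2 difference was 0.80 (SE 0.35, adjusted p = 0.146), or 1.10 without fl/fl-MI 2 (adjusted p = 0.0488) and 0.39 without fl/fl-MI 1 (adjusted p = 0.442). Tyrobp, which encodes the TREM2 adaptor DAP12, had a difference of 0.55 (SE 0.28, adjusted p = 0.153), and Syk, the kinase it recruits, 0.38 (SE 0.14, adjusted p = 0.0627). In limma on log2(FPKM + 1) Tyrobp was called at 0.97 and Syk at 0.79. The remaining 6 of the 9 TREM and DAP12 genes were under the filter on low values.

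Gpnmb, a lysosomal and membrane glycoprotein of lipid-laden macrophages (ENSMUSG00000029816, chr6:49036546-49070929), had 26.6 and 27.4 CPM in fl/fl-Sham, 30.1 and 48.3 in CKO-Sham, 58.1 and 41.1 in fl/fl-MI, and 39.5 and 24.5 in CKO-MI. The fl/fl-MI libraries were above the fl/fl-Sham libraries, and the CKO-MI and CKO-Sham libraries overlapped. The difference with MI was 0.87 (SE 0.31, adjusted p = 0.0917) in fl/fl and -0.29 (SE 0.31, adjusted p = 0.519) in CKO, with an interaction of -1.17 (SE 0.44, unadjusted p = 0.0325, adjusted p = 0.574). Within fl/fl it passed the test in DESeq2 (0.85, adjusted p = 0.0462) and without fl/fl-MI 2 (1.10, adjusted p = 0.0395), and was 0.58 without fl/fl-MI 1 (adjusted p = 0.231). MITF, which activates Gpnmb in pigment cells and macrophages, had no call with MI in edgeR (pooled difference -0.04, SE 0.10, adjusted p = 0.767), but Mitf turned to 0.42 on log2(FPKM + 1) (adjusted p = 0.00802) and 0.96 on TPM (adjusted p = 0.000345), close to the medians of all genes of 0.41 and 0.92. Gpnmb is also made by melanocytes, whose marker Mlana (chosen after its values were seen) had 32.0 CPM in fl/fl-MI 2 and at most 0.491 CPM elsewhere. Gpnmb had 41.1 CPM in fl/fl-MI 2 and 58.1 in fl/fl-MI 1, and the part of melanocytes in the Gpnmb values was not tested.

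**Figure D2:**
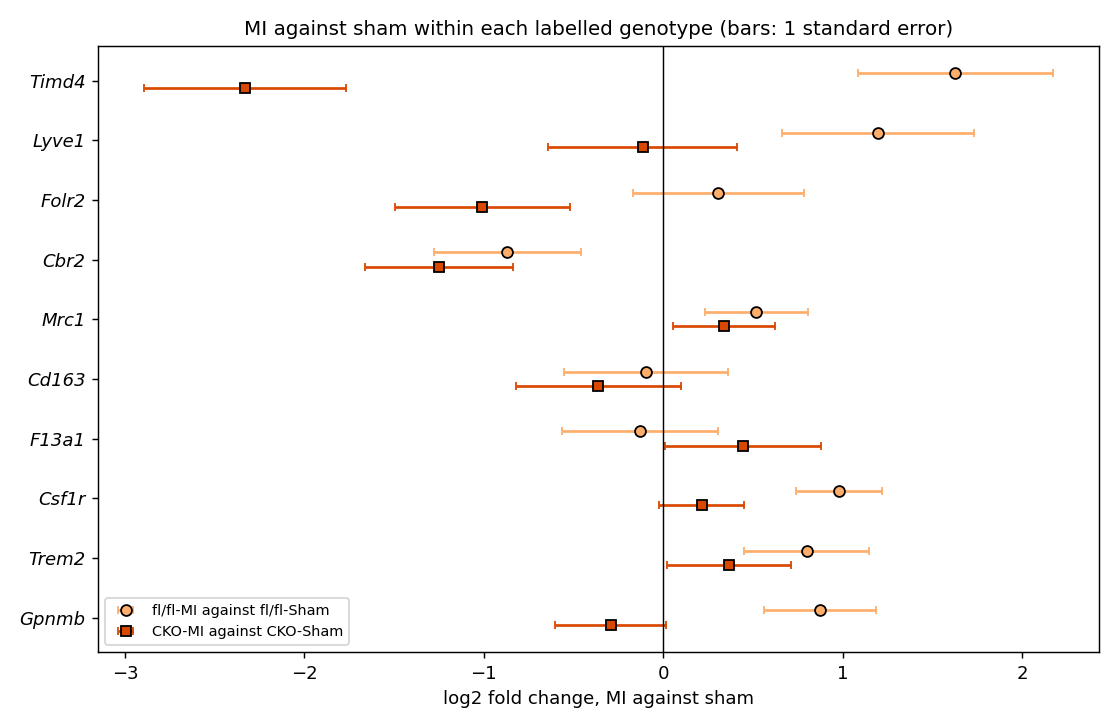
Log2 fold change of MI against sham (x axis) for the 10 marker genes (y axis) within the libraries labelled fl/fl (circles) and CKO (squares), from the edgeR fit to all 8 libraries, with bars of 1 standard error. The values for Timd4 lie on opposite sides of 0 (1.63 and -2.33), and those for Cbr2 are both below it (-0.87 and -1.25).

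Between the MI groups, 9 of the 10 members had lower fitted levels in the CKO-MI group, and none passed the test. The median of their log2 differences was -0.70, beside -0.01 for all genes. Timd4 (-3.10, SE 0.58), Folr2 (-1.78, SE 0.49), Lyve1 (-1.33, SE 0.54), Cd163 (-1.17, SE 0.46) and Csf1r (-0.77, SE 0.24) had unadjusted p under 0.05, which makes 5 of 10 against 5.24% of all genes lower at that level. In edgeR 0 members and 0% of all genes had an adjusted p under 0.05, and the smallest adjusted p of a member was 0.454, for Timd4. For 6 members both CKO-MI libraries were below both fl/fl-MI libraries, namely these 5 and Gpnmb (-0.63, SE 0.31), against 15.5% of all genes. DESeq2 called Timd4 (adjusted p = 9.02e-05) and Folr2 (adjusted p = 0.0273) lower, 2 of 10 against 0.998% of all genes.

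How large these differences were depended on which fl/fl-MI library was kept. Without fl/fl-MI 1, 4 members were called lower, Timd4 at -3.42, Folr2 at -2.28, Lyve1 at -1.85 and Cd163 at -1.63, against 6.04% of all genes called lower. Without fl/fl-MI 2, the library with atrial genes and Esr1, no member was called. Timd4 was then -2.67 (SE 0.59, adjusted p = 0.154), Folr2 -0.97 (SE 0.39), Csf1r -0.64 (SE 0.26) and Gpnmb -0.86 (SE 0.32), the 4 members lower at an unadjusted p under 0.05, against 6.03% of all genes. Lyve1 and Cd163 shrank to -0.48 (SE 0.45) and -0.44 (SE 0.39). These fits take the spread of the single fl/fl-MI library left from the remaining groups. The choice of CKO-MI library mattered too: the Timd4 difference was -2.58 without CKO-MI 1 and -3.89 without CKO-MI 2.

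**Figure D3:**
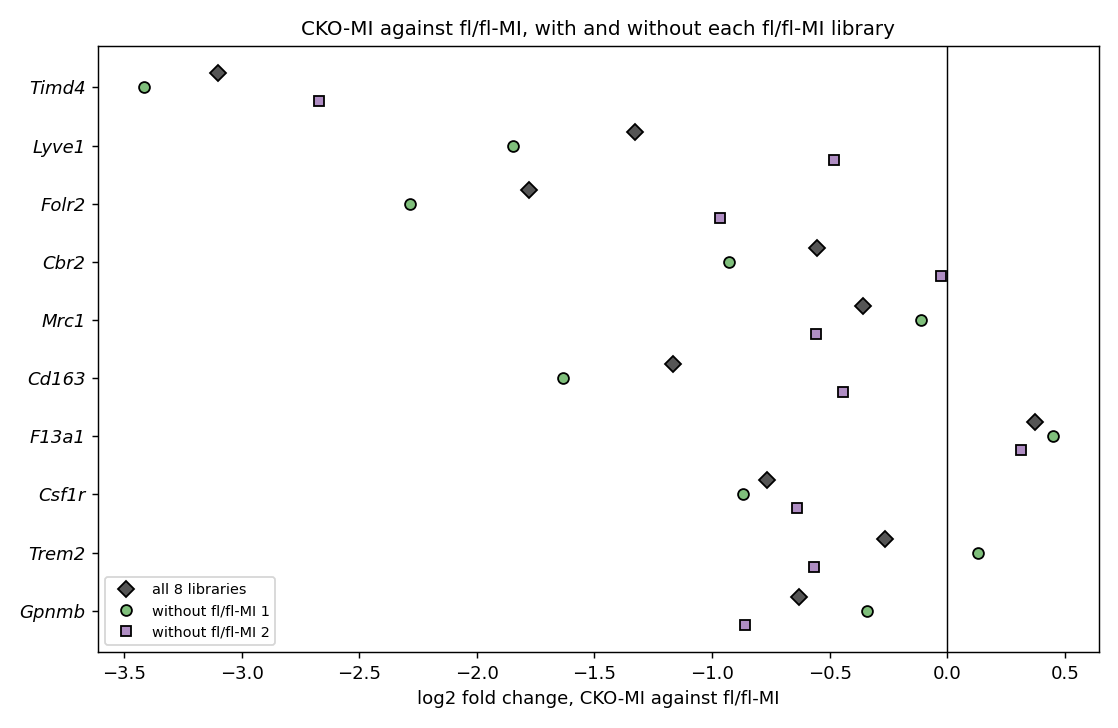
Log2 difference between CKO-MI and fl/fl-MI (x axis, below 0 where CKO-MI is lower) for each marker gene (y axis) in the edgeR fit to all 8 libraries (diamonds) and in fits without fl/fl-MI 1 (circles) or without fl/fl-MI 2 (squares). Timd4 is lowest of the 10 in each (-3.10, -3.42 and -2.67), Lyve1 moves from -1.85 without fl/fl-MI 1 to -0.48 without fl/fl-MI 2, and Trem2 moves from 0.13 to -0.56.

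Between the sham groups no member passed the test (edgeR adjusted p of 0.9997 or more, 0 of 10 with an unadjusted p under 0.05, and 0 called by DESeq2), and 0.00713% of all genes, a single gene, were called. The largest difference was for Cd163, at -0.90 (SE 0.46, 95% interval -1.81 to 0.0028). That fit took its spread from all 4 groups. With only the sham groups fitted in edgeR, again no member passed, and Cd163 was at -0.90 (adjusted p = 0.0831). There 61 of 14028 genes were called higher and 104 lower. At an unadjusted p under 0.05 in that fit, 2 members were lower and 1 higher, beside 1190 genes lower and 987 higher. For Folr2, Cd163, Mrc1 and F13a1, 4 of 10, both CKO-Sham libraries were below both fl/fl-Sham libraries, as for 23.8% of all genes. The interaction was below 0 for 9 members, with a median of -0.017 for all genes, and 0 members and 0% of all genes passed the adjusted test in edgeR. Without fl/fl-MI 2 it was above 0 for Cd163 (0.46), Cbr2 (0.15) and F13a1 (0.51) and below 0 for the others. Without fl/fl-MI 1 it was above 0 for Mrc1 (0.067) and F13a1 (0.65) and below 0 for the others. At an unadjusted p under 0.05 Timd4 and Gpnmb were lower, 2 of 10 against 4.94% of all genes, and DESeq2 called Timd4.

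Setting each member against Csf1r within its library, as a log2 ratio of FPKM, shows how the markers moved relative to the lineage gene. The ratio of Cbr2 to Csf1r was 0.62 to 1.23 for sham and -1.27 to -0.57 for MI. It was the 1 ratio of 9 that did not overlap between MI and sham, and for 26.1% of all genes the MI ratios were below the sham ratios in this way. The other ratios overlapped with sham. Their mean differences with MI were -1.04 for Folr2, -0.997 for Timd4, -0.89 for Cd163 and -0.52 for F13a1. They were -0.30 for Gpnmb and -0.18 for Mrc1, and the ratios of Trem2 (-0.03) and Lyve1 (-0.12) hardly moved on average.

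Between CKO-MI and fl/fl-MI the Timd4 ratio was -5.96 and -5.32 against -3.47 and -2.96, and the Folr2 ratio was -2.17 and -1.82 against -1.61 and -0.53. These 2 ratios were lower in CKO-MI without overlap, as for 0.806% of all genes. The ratios of Trem2 and F13a1 were higher in CKO-MI without overlap, as for 70.0% of all genes, and all of these ratios share the denominator Csf1r, which itself differed by -0.77 between the MI groups (unadjusted p = 0.0144).

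**Figure D4:**
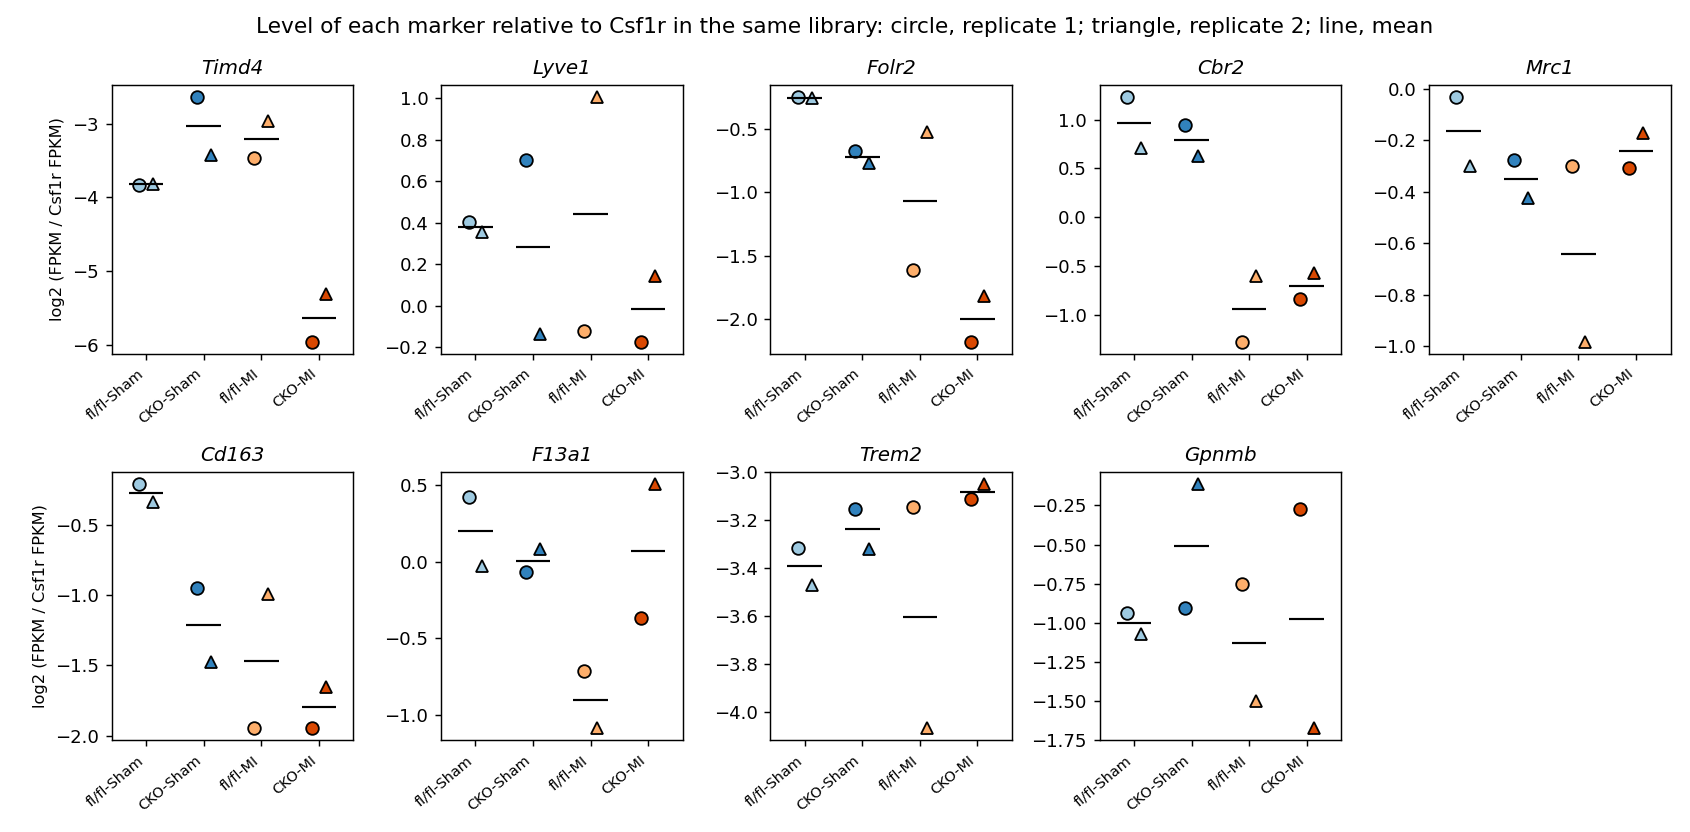
Log2 ratio of each marker's FPKM to that of Csf1r in the same library (y axis, 1 panel for each of 9 genes) by group, with replicate 1 as a circle, replicate 2 as a triangle and the mean as a line. The Cbr2 ratio is at most -0.57 in all 4 MI libraries and at least 0.62 in all 4 sham ones, and the Timd4 ratio is lowest in CKO-MI.

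The members did not vary as a single set. Over the 8 libraries, which share the groups and their depth, the 45 pairwise Pearson correlations of log2(CPM + 1) ran from -0.48 to 0.93 with a median of 0.34. Folr2 and Cd163 (r = 0.93) and Mrc1 and Trem2 (r = 0.91) were the most alike, Lyve1 was close to Csf1r (r = 0.85), and Gpnmb was lowest with F13a1 (r = -0.48). The genes most like Lyve1 among all tested were Foxp1 (r = 0.97), Pf4 (r = 0.96) and Gltp (r = 0.94), each with its highest value in fl/fl-MI 2. Those most like Trem2 were Arhgdib, Cotl1 and Epb41l2 (r = 0.98 for each), highest in fl/fl-MI 1. Those most like Csf1r were Spink8, Defb22 and Defb26, with r of 0.99, 0.98 and 0.98. All 3 are low genes, at most 5.88 CPM and at 0 in CKO-MI 1, and each was above 1 CPM in at most 3 libraries.

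Other genes of the same cells were taken from lists by role, beginning with 18 general macrophage genes. Of these, 6 rose with MI and 1 fell, beside 22.0% and 18.3% of all genes (median difference 0.68, beside 0.03 for all genes): Adgre1, a surface protein of mature macrophages, rose by 1.14 (SE 0.19, adjusted p = 0.00442), and Cd14, a lipopolysaccharide co-receptor, by 1.78 (SE 0.35, adjusted p = 0.00748). Mpeg1, Lyz2, Laptm5 and Fcgr3 also rose. Mertk, an efferocytosis receptor, fell by 1.09 on the log2 scale (SE 0.16, adjusted p = 0.00279) but was at -0.43 on log2(FPKM + 1) and at 0.04 on TPM, where it was not called, while Cd68 was at 0.26 (SE 0.17, adjusted p = 0.258) and was called at 0.74 on log2(FPKM + 1). Limma on log2(FPKM + 1) called 12 of the 18 higher, where 50.1% of all genes were called higher, and on TPM 16 were, beside 76.7% of all genes.

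Of 14 further genes of resident-type macrophages tested, 3 rose and none fell (1 fell with RLE size factors), a share of higher genes near the 22.0% of all genes. On log2(FPKM + 1) 7 and on TPM 12 were called higher, again beside 50.1% and 76.7% of all genes. The 3 include Gas6, a bridging ligand for apoptotic cells (0.96, SE 0.17), and the adhesion protein Ninj1 (0.52, SE 0.11). Vsig4 (chosen after its values were seen), a complement receptor of resident macrophages, had 34.2 CPM in fl/fl-MI 2 and at most 4.52 CPM elsewhere. All 6 MHC class II genes tested, which present antigen to T cells, rose under each scaling, H2-Eb1 by 1.66 (SE 0.39, adjusted p = 0.0148), H2-Aa by 1.53 (SE 0.37, adjusted p = 0.0159) and Cd74 by 1.38 (SE 0.35, adjusted p = 0.0207). All 6 were highest in fl/fl-MI 1, with H2-Aa at 248 CPM there, 71.3 in fl/fl-MI 2 and 50.0 and 57.5 in CKO-MI.

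The 13 genes of monocytes and recruited macrophages went both ways, with 3 higher and 3 lower, near the 22.0% and 18.3% of all genes. On log2(FPKM + 1) 5 were higher and 2 lower, and on TPM 8 and 1. Thbs1, which encodes the matrix protein thrombospondin-1 and is not specific to monocytes, rose by 2.71 (SE 0.30, adjusted p = 0.00115). Ly6c2, a surface protein of classical monocytes, fell by 1.47 on the log2 scale (SE 0.18, adjusted p = 0.00155) and Nos2, the inducible nitric oxide synthase, fell by 1.86 (SE 0.19, adjusted p = 0.000938). On TPM the call of Ly6c2 ended, at -0.24, and that of Nos2 held at -0.57. Ccr2, the receptor that draws monocytes into tissue, had 4.49 to 21.7 CPM in the MI libraries and 4.51 to 13.7 in sham (0.75, SE 0.49, adjusted p = 0.263).

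Of 16 lipid-associated macrophage genes 5 rose and 3 fell, beside the same 22.0% and 18.3% of all genes. On log2(FPKM + 1) 9 were higher and 2 lower, and on TPM 12 and 1. Lgals3, which encodes galectin-3, rose by 1.44 (SE 0.15, adjusted p = 0.00106) and Spp1, osteopontin, by 0.70 (SE 0.22, adjusted p = 0.0385), while the tetraspanin gene Cd9 was at 0.29 (SE 0.15, adjusted p = 0.158) and was called at 0.82 on log2(FPKM + 1). The 3 that fell were Fabp4, Fabp5 and Cd36, fatty acid carriers that endothelium, fat and muscle also express. Fabp4 fell by 1.87 on the log2 scale (SE 0.18, adjusted p = 0.000747) and was at -0.73 on TPM, while Cd36 turned to 0.31 there. All 6 endothelial markers tested fell as well, 3 of them also on TPM, and their summed level was 1470.1 to 1586 CPM in sham and 477 to 747 CPM in MI. The part of the endothelium in these values was not tested.

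The growth factors of the CSF1 receptor were not called in edgeR: Csf1 differed by 0.30 (SE 0.18, adjusted p = 0.207) and Il34 by -0.54 (SE 0.27, adjusted p = 0.154). Of the 6 genes of this list tested, Csf1r and Csf2rb, the common beta chain of related receptors (0.93, SE 0.20, adjusted p = 0.0104), rose. On log2(FPKM + 1) and on TPM 5 of the 6 were called higher, Csf1 among them at 0.76 and 1.33, and Il34 was not called on either. Between CKO-MI and fl/fl-MI no gene of these lists passed the edgeR test, as for all genes. There 16 of 18 general macrophage genes (median -0.52), 13 of 14 resident-type genes (median -0.32) and all 6 MHC class II genes (median -1.56) were below 0. The median of all genes was -0.01. Without fl/fl-MI 2 the counts below 0 were 18, 12 and 6. That fit kept only fl/fl-MI 1 of its group, the library where all 6 MHC class II genes were highest.

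Markers of other cells moved in the same libraries. Fibroblast markers summed to 1336 to 1475 CPM in sham, 6140 CPM in fl/fl-MI 1, 2089 in fl/fl-MI 2, 3152 in CKO-MI 1 and 5312 in CKO-MI 2, with 6 of 7 called higher. The order of these sums in the MI libraries was that of the MI values of Mrc1 and Trem2 but for fl/fl-MI 2 and CKO-MI 1, which were exchanged. Neutrophil markers summed to 5.37 to 13.4 CPM, lymphocyte markers to 3.75 to 8.73 CPM, mast cell markers to 6.51 to 17.1 CPM and lung markers to at most 1.05 CPM. Of these lists 4 neutrophil markers, 1 lymphocyte marker and 3 mast cell markers passed the filter, and none had a call in edgeR. The lung markers were all under the filter, with 0 tested, so a call was not possible for them. Platelet markers (3 tested), the melanocyte marker tested (1), adipocyte markers (6) and the MITF and TFE factors (3) had no call in edgeR either. Of 7 cardiomyocyte markers 2 were called higher and 2 lower, of 4 dendritic cell markers 1 higher and 2 lower, and of 5 atrial markers 1 higher. On TPM all 6 adipocyte markers, all 3 mast cell markers, all 3 MITF and TFE factors, 2 of 3 platelet markers and 1 of 4 neutrophil markers were called higher, beside 76.7% of all genes. On log2(FPKM + 1) the 3 MITF and TFE factors, 1 platelet marker and 1 neutrophil marker were, beside 50.1% of all genes. The part of any other cell type in the members' values was not tested.

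**Figure D5:**
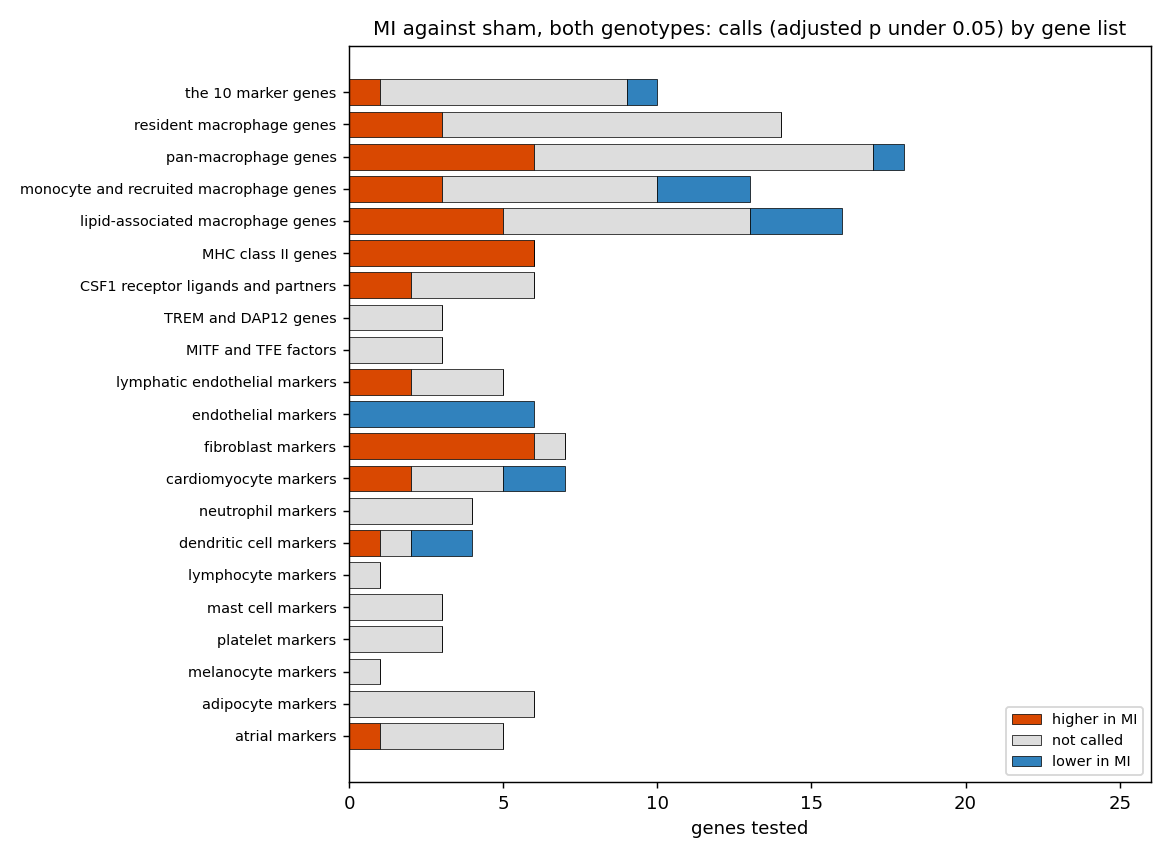
Number of genes tested (x axis) in each gene list (y axis) that were called higher, not called or called lower in MI against sham over both genotypes at an edgeR adjusted p under 0.05. The 6 MHC class II genes are all higher, the 6 endothelial markers are all lower, and the 10 marker genes have 1 call each way.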

How the data were processed

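The samples were 8 poly(A), strand-marked paired-end RNA-seq libraries of mouse myocardium, 2 in each of 4 groups taken from the labels. The authors deposited whole-number counts and FPKM values (fragments per kilobase, scaled to depth) for genes and transcripts, and the submitters' processing notes name cutadapt 1.9 and FastQC. The aligner and counting program are not given in the sources used here. Low deposited counts pile up at multiples of 4. Gene identifiers matched GENCODE M21 (GRCm38) for 99.7% of genes, and 90.7% had the same coordinates.

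The 14028 of 33249 genes whose FPKM averaged 0.5 or more were fitted with edgeR 4.0.16 (R 4.3.3) by the quasi-likelihood test on TMM-scaled counts, as 4 group means over all 8 libraries. A call is a Benjamini-Hochberg adjusted p under 0.05 over all genes tested. Alternatives used DESeq2 1.42.0, limma 3.58.1 on FPKM and TPM, other filters and scalings, a replicate block and each library left out. Intervals of differences are 95% normal intervals from the standard error. The fits were also run on simulated counts, drawn with the same spread per gene in all groups. In the deposited counts divided by 4, the chi-square per gene between the libraries of a group was not equal. It was 176 in fl/fl-MI, 49.5 in CKO-MI, 14.4 in CKO-Sham and 10.9 in fl/fl-Sham, and the simulation does not cover such a difference. Depth was 73821747 to 88117573 counts per library.

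Besides the 10 members, the genes named were Csf1, Il34, Tyrobp, Ccr2, Adgre1, Cd68, Spp1, Cd9, Lgals3, Piezo1, up to 3 genes of smallest p in MI against sham from each list, and the 3 most like each of Lyve1, Csf1r and Trem2. Others named as members of a list that passed the test, and Esr1, Bmp10, Vsig4, Mlana and Ccl21a, were chosen after their values were seen. The members and lists were chosen with earlier results of these data known. Same-numbered libraries did not deviate together, with correlations of -0.21 to 0.06. A gene of the resident-type list is not reported here.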

Additional observations from a re-analysis of the deposited data

Results flagged for a closer look

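The response of Timd4 to MI differed between the libraries labelled fl/fl and CKO at an unadjusted p of 0.00145, with an interaction of -3.96 on the log2 scale (SE 0.78). The change was 1.63 in fl/fl and -2.33 in CKO. The edgeR adjusted p over all genes was 0.560, so the difference failed the correction, and the DESeq2 adjusted p was 0.00115. Timd4 was higher in both fl/fl-MI than in both fl/fl-Sham libraries and lower in both CKO-MI than in both CKO-Sham libraries.

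The response of Mitf, which encodes the transcription factor MITF, differed at an unadjusted p of 0.0190, with an interaction of 0.58 (SE 0.19, adjusted p = 0.574). Its change with MI was -0.33 (SE 0.14) in fl/fl and 0.25 (SE 0.14) in CKO, and its level was 29.1 to 30.7 CPM in fl/fl-Sham, 23.8 to 26.2 in CKO-Sham, 21.8 to 25.8 in fl/fl-MI and 29.2 to 30.4 in CKO-MI. Neither of these tests passed the correction over all genes in edgeR.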

How the results depend on the processing

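Of the alternatives to single values, 919 kept direction and side of the threshold, 24 fell under it, 53 passed it and 66 changed sign. The calls that ended are given in the report. Members called with MI over both genotypes (2) became 4 in limma on log2(FPKM + 1) and on log2(FPKM + 0.1), and 7 on log2(TPM + 1). On these 3 scales 50.1%, 50.8% and 76.7% of all genes were called higher. With no genotype term, added after seeing the data, the members called became 1, where 3183 genes were called higher and 2665 lower. In fl/fl (1) they became 3 in DESeq2, where 2198 of 14028 genes were called higher and 1840 lower. They became 4 on both FPKM scales and 7 on TPM, beside 34.2%, 35.5% and 65.7% of all genes higher. When only the groups compared were fitted they became 0. In CKO (1) they became 2 in DESeq2, where 2409 genes were called higher and 2317 lower. They became 0 on log2(FPKM + 1) and 3 on TPM (beside 61.7%). With only the groups compared they became 2, where 2531 genes were called higher and 2304 lower. DESeq2 called 2 between the MI groups, where 67 genes were called higher and 140 lower. It called 1 for the interaction, where 60 genes were called higher and 71 lower, and edgeR called 0 members in both. List genes called were 94 on TPM against 53.

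With each library left out in turn, members called were 0 to 4 with MI over both genotypes, 0 to 4 in fl/fl, 0 to 3 in CKO, 0 to 4 between the MI groups and 0 to 1 for the interaction, and list genes called were 29 to 79. Log2 differences that changed sign then ran as follows. In CKO-MI against CKO-Sham they were -0.95 to 0.030 for Cd163, -0.18 to 0.50 for Csf1r, -0.55 to 1.004 for F13a1, -0.70 to 0.088 for Gpnmb, -0.71 to 0.44 for Lyve1, -0.14 to 0.68 for Mrc1 and -0.065 to 0.68 for Trem2. In fl/fl-MI against fl/fl-Sham they were -0.82 to 0.36 for Cd163, -0.26 to 0.015 for F13a1 and -0.51 to 0.80 for Folr2. Over both genotypes F13a1 was -0.36 to 0.42. Between the MI groups F13a1 was -0.59 to 0.97, Mrc1 -0.80 to 0.015 and Trem2 -0.66 to 0.13. Between the sham groups Cbr2 was -0.41 to 0.027, Csf1r -0.087 to 0.091 and Lyve1 -0.57 to 0.38. The interaction was -0.92 to 0.15 for Cbr2, -0.82 to 0.46 for Cd163, -0.39 to 1.17 for F13a1 and -0.63 to 0.19 for Mrc1.

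FPKM and TPM raise the median of all genes with MI by 0.41 and 0.92, and signs turned with them. Over both genotypes the values on log2(FPKM + 1), log2(FPKM + 0.1) and log2(TPM + 1) were 0.26, 0.24 and 0.59 for Timd4, 0.13, 0.10 and 0.63 for Folr2, and 0.22, 0.25 and 0.73 for Cd163, while Cbr2 was 0.021 on TPM. In fl/fl they were 0.31, 0.34 and 0.84 for Cd163 and 0.40, 0.44 and 0.95 for F13a1, with Cbr2 at 0.20 on TPM. In CKO they were 0.40, 0.43 and 0.95 for Lyve1, 0.13, 0.15 and 0.61 for Cd163, and 0.22, 0.27 and 0.75 for Gpnmb, with Folr2 at 0.051 on TPM. With no genotype term Timd4 was 0.29 over both genotypes. Between the sham groups Csf1r turned from a value near 0 to 0.0047 with RLE size factors, 0.0047 in DESeq2, 0.023 with the FPKM filter at 5 and 0.0012 with counts divided by 4, and Lyve1 to 0.00060 with that filter.

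With the replicate block 2 members were called over both genotypes, where 2745 genes were called higher and 2340 lower. In fl/fl 1 member was called, where 883 genes were higher and 806 lower. In CKO 1 member was called, where 1387 genes were higher and 1290 lower. In the other comparisons 0 members and 0 genes were called, so the block changed no count of member calls. In the replicate block fit the sham difference of Lyve1 was 0.053 and that of Csf1r 0.012. The crossed replicate block, added after seeing the data, called 0 members and 0 of all genes between the MI groups. The causes of these changes were not tested. A mean FPKM of at least 5 left out Timd4, Cd163 and Trem2. Depth limits Timd4 most, at 6 to 104 read pairs a library.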
